A study of Mus musculus with 9 samples.

Results

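The protein components of the cytosolic ribosome are encoded by the Rpl genes of the large subunit, the Rps genes of the small subunit and Rpsa, with Rplp0, Rplp1 and Rplp2 for the stalk. In the gene table of this experiment 86 protein-coding genes carry such a name, out of 22048 genes. Members were taken by symbol alone, with the Rps6k kinases and genes marked as pseudogenes left out, so that 16 pseudogene symbols, 10 kinases and 1 further processed pseudogene were dropped. By name 52 belong to the large and 34 to the small subunit. Of the 86, 77 are core ribosomal proteins and 9 are paralogs or a binding protein that share the naming pattern, namely Rpl3l, Rpl7l1, Rpl10l, Rpl22l1, Rpl36al, Rpl39l, Rps27l, Rps27rt and Rps19bp1.

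RNA came from pancreatic islets of wild-type ICR mice, an outbred strain, kept for 3 days in RPMI medium with serum at 11.8 mM glucose, the level of the normal medium and the control, at 20 mM or at 35 mM, with 3 libraries at each concentration. One protocol field writes 25 mM where every title and treatment label has 35 mM, and 35 mM was taken. The islets were isolated from 9 mice, but no source says that a library stands for 1 animal. A p-value here therefore refers to the spread of these samples alone, and that spread may be technical. Libraries were made with CEL-Seq2, which sequences a tag near the 3′ end of each polyadenylated transcript.

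Ribosomal proteins are needed in near equal numbers, since each assembles with ribosomal RNA into a particle that holds a single copy of nearly all of them. Most of their mRNAs start with a C followed by a run of pyrimidines, the 5′ terminal oligopyrimidine or TOP sequence, through which the kinase complex mTORC1 and the RNA-binding protein LARP1 set how well the mRNA is translated and how stable it is. Beta cells have a heavy load of secretory protein synthesis, with insulin as its main product. The counts here measure the mRNA of these genes and not their translation.

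The start of the transcript is the feature by which this family is best known, so starts are shown for genes that the results below turn on and for a few whose annotated start carries the tract. Sequences are from RefSeq on GRCm38.p6 and run 5′ to 3′ on the strand of the gene, from 10 bases before the annotated start to the first 20 bases of the transcript. Capitals mark the unbroken run of pyrimidines that begins at the annotated start. The first 5 have a C followed by at least 4 pyrimidines there, and the others do not.
Rps6, chr4:86857348-86857377, minus strand: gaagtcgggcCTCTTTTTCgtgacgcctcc
Rpl38, chr11:114668570-114668599, plus strand: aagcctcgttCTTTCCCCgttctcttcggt
Rps27, chr3:90213629-90213658, minus strand: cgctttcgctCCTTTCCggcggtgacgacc
Rplp2, chr7:141447641-141447670, plus strand: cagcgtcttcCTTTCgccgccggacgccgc
Rpl35, chr2:39005112-39005141, minus strand: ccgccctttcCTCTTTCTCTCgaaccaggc
Rps9, chr7:3704031-3704060, plus strand: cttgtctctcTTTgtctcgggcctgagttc
Rps2, chr17:24720053-24720082, plus strand: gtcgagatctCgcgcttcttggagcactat
Rpl4, chr9:64173377-64173406, plus strand: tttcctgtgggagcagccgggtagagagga
Rpl5, chr5:107900518-107900547, plus strand: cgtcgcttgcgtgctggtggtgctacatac
Rpl22l1, chr3:28805498-28805527, plus strand: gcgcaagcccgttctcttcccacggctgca
Rpl36al, chr12:69184048-69184077, minus strand: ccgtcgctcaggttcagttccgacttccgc

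Among the members 66 matched an entry of the RefSeq promoter table. A C followed by at least 4 pyrimidines stood at an annotated start of 14 of them, or 21.2%, against 813 of 27025 genes with an entry, or 3.01%. The search read the strand of the gene only and allowed any C or T after the first C. A run of at least 8 pyrimidines within 10 bases of the start was found in 29 members, or 43.9%, against 15.8% of all genes with an entry. Annotated starts can lie some bases away from the start used in islets, so a sequence without the tract says only that these letters are not at this position.

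The libraries held 3228648 to 4559561 gene counts. Ins1 and Ins2, the insulin genes that define beta cells, took 48.3% to 57.5% of them, and the markers of alpha, delta and PP cells, the other hormone cells of the islet, took 3.05% to 4.77%. Markers of acinar cells, which make digestive enzymes and are not part of the islet, summed to 0.378% to 1.42% of the gene counts. In 2 of the 27 barcoded sub-libraries, 3 of which make up each library, 35.2% and 39.5% of the reads were not uniquely aligned, against 11.3% to 17.0% in the other 25. They belong to replicate 1 at 11.8 mM and replicate 1 at 35 mM, and results are given without them where they differ. In bulk RNA of this kind fewer cells of a type and less RNA per cell cannot be told apart.

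Ribosomal protein mRNAs were abundant, with 1124309 counts over the 9 libraries, and were of very unequal level. Of the 86 genes, 82 passed the filter on low counts, and their mean levels ran from 3.50 CPM (counts scaled to a common library total) for Rps19bp1, which encodes a protein that binds Rps19, to 6111 CPM for Rpl4, whose protein lines the exit tunnel of the large subunit. CEL-Seq2 gives each transcript a single tag near its 3′ end, so CPM were compared between genes without division by length. The median was 222 CPM, and 65 members had at least 100 CPM.

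Rpl4 had 4941, 6446 and 6869.7 CPM at 11.8 mM, 7357, 6294 and 6054 CPM at 20 mM, and 5191, 5586 and 6260.5 CPM at 35 mM. It was 3.63 times as high as the next member, took 17.9% of the summed member CPM, and was the only member among the 20 most abundant genes of the data. Rpl17, Rps7, Rpl26 and Rpl21 followed with means of 1681, 1321, 1308 and 1039.7 CPM, and these 5 genes held 33.6% of the member total. At the other end stood Rpl36 at 24.3 CPM, Rpl7l1 at 9.85 CPM, Rpl35 at 9.09 CPM and Rpl29 at 8.54 CPM, below which only Rps19bp1 lay.

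**Figure D1:**
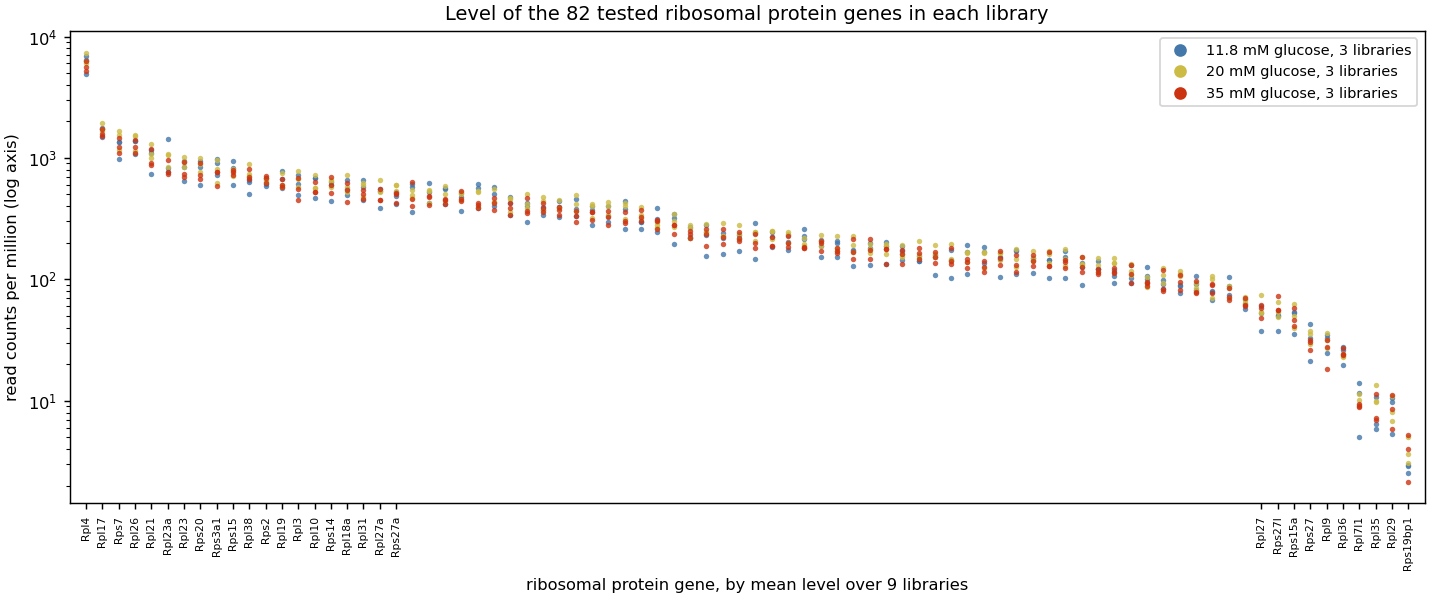
Level of each of the 82 tested ribosomal protein genes, in CPM on a log axis, ordered by the mean over 9 libraries, with names for the highest and the lowest genes; each point is a library, coloured by glucose concentration. Rpl4 stands apart at a mean of 6111 CPM, and points of the 3 concentrations are mixed for most genes.

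The protein products are needed in like numbers, but the counted reads cannot be read as transcript numbers. Reads that align to more than 1 place are not assigned to a gene by the counting, and ribosomal protein genes have many processed copies in the genome. In the last 300 bases of the annotated transcript, 24 members had no 50-base window that is found in the transcript of another gene. For 47 members more than 50% of the windows were found in another gene's transcript. That gene was not always a pseudogene: Rpl5 shared 100% with 1 gene and with 0 pseudogenes. The windows come from 1 annotated transcript per gene, which may not end where the counted mRNA does. Rpl4 had 0% of its windows shared, whereas Rps27, at 31.9 CPM, had 100% and Rps2, at 651 CPM, had 78.1%, found in 51 pseudogenes. Over the members tested, the median level was 212 CPM with no shared window, 154 CPM with up to 50% shared and 283 CPM with more than 50% shared. In addition 28 members overlap an exon of another gene on the same strand, Rpl4, Rpl5, Rpl13a, Rpl36al and Rps2 among them, and reads could be split or dropped there.

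Of the paralogs, 4 were at or near 0. Rpl10l and Rpl39l, known from testis, had no count in any library, which allows up to 0.0905 CPM over the 9 libraries (3 counts of the total, counting error only). Rpl3l, known from heart and skeletal muscle, had 1 count in all, and Rps27rt had 6. Rps27rt shares 88.4% of its 3′ windows with other genes, so its reads may have been left uncounted, whereas Rpl10l, Rpl39l and Rpl3l share 0%. These 4 were not tested.

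Summed over all members, ribosomal protein genes took 3.14%, 3.596% and 3.22% of the gene counts in the libraries at 11.8 mM, 4.04%, 3.57% and 3.15% at 20 mM, and 3.17%, 3.00% and 3.63% at 35 mM. The means were 3.32% ± 0.243 at 11.8 mM, 3.59% ± 0.441 at 20 mM and 3.27% ± 0.325 at 35 mM (SD, n = 3). The concentrations overlapped fully, with a library near 3.1% at each. With the insulin genes taken out of the total the shares were 7.18% ± 0.860, 7.33% ± 0.528 and 6.74% ± 0.553 (SD, n = 3), which overlapped as well.

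At 20 against 11.8 mM, no ribosomal protein gene passed the test: 0 of 82 were called at an adjusted p under 0.05, where 18 of all 9739 genes tested, or 0.185%, were (0.154% higher and 0.0308% lower; edgeR quasi-likelihood test with Benjamini-Hochberg adjustment over all genes, used for every adjusted p here). At an unadjusted p under 0.05 stood 6 of 82 members, all higher at 20 mM. Of all 9739 genes 776 did, or 7.97% in either direction, with 433 higher and 343 lower. DESeq2 called 57 genes and among them 1 member, Rpl36al, described below. The members' log2 fold changes ran from -0.23 to 0.51, with a median of 0.11 against -0.00 over all genes, and 65 of 82 lay above 0, against 49.8% of all genes. The median standard error of a member's log2 fold change was 0.14. This median rested on 1 control library: without replicate 1 at 11.8 mM it was 0.00, with 41 of 82 above 0. Without replicate 1 at 20 mM it was 0.04, and without replicate 2 at 11.8 mM it was 0.22.

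The 3 libraries at 20 mM lay wholly above those at 11.8 mM for 6 members, against 6.79% of all genes, and wholly below for none, against 6.04%. They were Rpl22l1, Rpl36al, Rpl38, Rps13, Rps19bp1 and Rps27a. Rpl38, a large subunit protein known for its part in the translation of Hox mRNAs, had 502, 659 and 636 CPM at 11.8 mM and 885, 742 and 716 CPM at 20 mM, a log2 fold change of 0.38 ± 0.14 (SE, edgeR adjusted p = 0.382). Each value at 20 mM was above each control value, with the control of replicate 1 the lowest. Rps27a, made as a fusion of ubiquitin and a small subunit protein, had 414, 484 and 523 CPM at 11.8 mM and 599.6, 595 and 535 CPM at 20 mM, with a log2 fold change of 0.28 ± 0.13 (SE, edgeR adjusted p = 0.582). Rps13, a small subunit protein, had 298, 298 and 258 CPM against 391, 318 and 341 CPM, with 0.30 ± 0.13 (SE, edgeR adjusted p = 0.544).

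At 35 against 11.8 mM, again 0 of 82 members were called, where 84 genes, or 0.863% of all tested, were (0.626% higher and 0.236% lower). At an unadjusted p under 0.05 were 5 members, 2 higher and 3 lower, against 10.5% of all genes. The log2 fold changes ran from -0.37 to 0.43 with a median of -0.04, and 35 of 82 lay above 0, against 49.6% of all genes. The sign of this median was not the same under all settings: it was 0.10 with spike-in RNA as the scale, which put the median of all genes at 0.12, 0.08 without replicate 2 at 11.8 mM, 0.03 without replicate 1 at 35 mM and -0.18 without replicate 1 at 11.8 mM.

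Of the genes with the smallest p in this comparison, 3 were lower at 35 mM. Rps9, whose protein contributes to accurate decoding, had 229, 259 and 215 CPM at 11.8 mM, 195, 221 and 189 CPM at 20 mM and 180.3, 183 and 181 CPM at 35 mM. Its 35 mM values lay within 3 CPM of each other and below all 6 others, and the log2 fold change at 35 against 11.8 mM was -0.37 ± 0.13 (SE, edgeR adjusted p = 0.243). Rpl13a, known as part of a complex that silences translation of inflammatory mRNAs, had 137, 186 and 169 CPM at 11.8 mM and 114, 127 and 141 CPM at 35 mM, with -0.37 ± 0.14 (SE, edgeR adjusted p = 0.335). Here the values overlapped. Rpl5, which carries 5S ribosomal RNA into the large subunit together with Rpl11, had 388, 605 and 566 CPM at 11.8 mM and 384, 428 and 409 CPM at 35 mM, with -0.35 ± 0.15 (SE, edgeR adjusted p = 0.387). The overlap came from replicate 1 at 11.8 mM. Without that library Rpl5 was called, with a log2 fold change of -0.53 (edgeR adjusted p = 0.0319). In that setting 138 of all genes were called, in place of 84. The members' median was then -0.18, with 13 of 82 above 0, so the shift was not particular to Rpl5. Rpl11 itself had 135, 203 and 187 CPM against 134, 177 and 177 CPM, which overlapped.

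Libraries at 35 and 11.8 mM did not overlap for 3 members that were higher at 35 mM (Rpl38, Rps13 and Rps27l), against 8.22% of all genes, and for 2 that were lower (Rpl8 and Rps9), against 6.69%. Rpl38 had 674, 699 and 806 CPM at 35 mM, a log2 fold change of 0.28 ± 0.14 over the same controls (SE, edgeR adjusted p = 0.47). Since 20 and 35 mM share their controls, Rpl38 and Rps13 standing above them at both concentrations are not separate observations.

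At 35 against 20 mM no member was called, where 3 genes, or 0.0308% of all tested, were, and 1 member was at an unadjusted p under 0.05, against 5.29% of all genes. The log2 fold changes ran from -0.37 to 0.14 with a median of -0.15, against -0.00 over all genes. Only 4 of 82 lay above 0, against 49.8% of all genes. No member lay wholly above, against 6.15% of all genes, and 3 (Rpl36al, Rps27a and Rps9) lay wholly below, against 5.76%. The median was -0.08 without replicate 1 at 20 mM and -0.08 without replicate 1 at 35 mM, with 14 and 17 of 82 above 0. With spike-in RNA as the scale 15 of 82 lay above 0. Members moved together between libraries, as given below, so in each comparison the 82 are not separate observations.

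**Figure D2:**
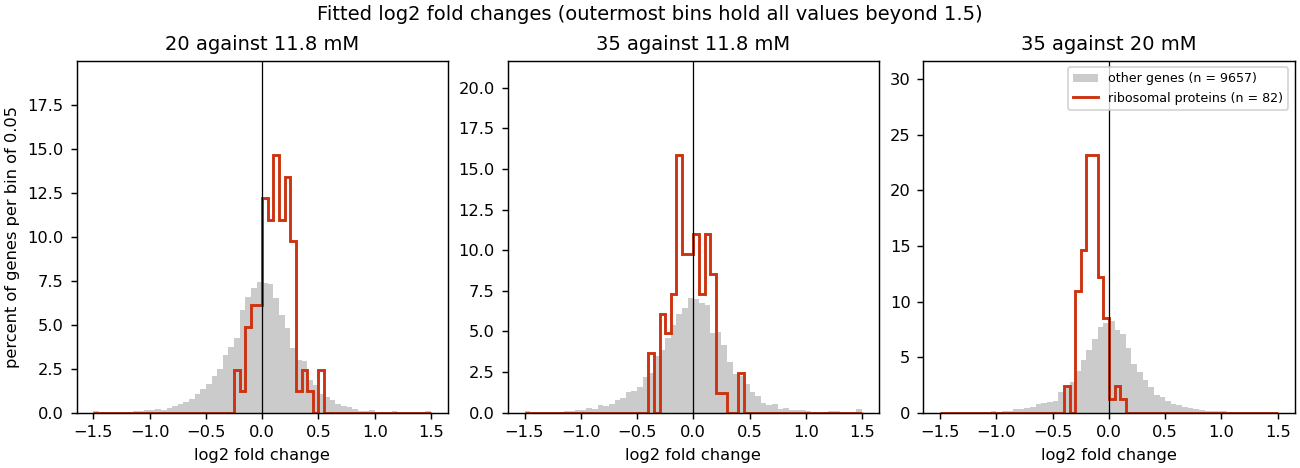
Percent of genes in bins of log2 fold change for the 82 ribosomal protein genes (red line) and the 9657 other genes tested (grey), in the 3 comparisons between glucose concentrations. The ribosomal protein genes fill a narrower range, with medians of 0.11, -0.04 and -0.15. Their log2 fold changes were also more precise, with a median standard error of 0.14 in each comparison, against 0.25 over all genes.

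Genes of single functions within the ribosome gave the same picture. Of the stalk, which recruits translation factors to the ribosome, Rplp1 had 67.4, 79.6 and 78.9 CPM at 11.8 mM, 101, 106 and 70.5 CPM at 20 mM and 76.7, 89.4 and 91.8 CPM at 35 mM. Rplp0 had means of 109 ± 19.0, 121 ± 13.1 and 112 ± 19.5 CPM and Rplp2 of 169 ± 22.4, 169.7 ± 21.3 and 157 ± 20.7 CPM (SD, n = 3) at the 3 concentrations in rising order. All 3 stalk genes overlapped between the concentrations. Rps6, the ribosomal substrate of the S6 kinases downstream of mTORC1, had 186 ± 28.6, 194 ± 31.3 and 173 ± 8.48 CPM. Rpl3, near the catalytic centre, had 606 ± 111, 677 ± 99.3 and 560.4 ± 117 CPM, and Rps3, at the mRNA entry site, had 128 ± 11.9, 131 ± 17.4 and 116 ± 6.10 CPM (SD, n = 3). By subunit, median log2 fold changes at 20 against 11.8 mM were 0.11 for 49 large subunit and 0.10 for 33 small subunit genes, and at 35 against 11.8 mM they were -0.04 and -0.01.

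The paralog pairs were also compared as ratios within each library. A member's library-to-library spread is not the same in each pair, and with each concentration's mean removed Rpl22l1 had a correlation with the family of 0.48 and Rpl22 of 0.91, so a ratio can still move with the family. Rpl22l1 (chr3:28805436-28807424, GRCm38) is the paralog of Rpl22 (chr4:152325742-152334071), whose protein is known to hold down Rpl22l1 expression in mice. Rpl22l1 had 76.8, 87.7 and 89.1 CPM at 11.8 mM, 106, 117 and 112 CPM at 20 mM and 95.5, 82.5 and 109 CPM at 35 mM, with a log2 fold change at 20 against 11.8 mM of 0.40 ± 0.14 (SE, edgeR adjusted p = 0.351). Rpl22 had 73.8, 105 and 88.9 CPM, then 85.3, 88.7 and 69.7 CPM, then 67.4, 71.4 and 84.9 CPM.

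The ratio of Rpl22l1 to Rpl22 was 1.04, 0.837 and 1.00 at 11.8 mM, 1.24, 1.32 and 1.603 at 20 mM, and 1.42, 1.15 and 1.28 at 35 mM. In each concentration the ratio was highest in the library where the family was lowest. Both higher concentrations lay wholly above the control, with an exact permutation p of 0.1 (two-sided), the smallest that 3 libraries against 3 can give. Of all genes, 9.2% had a ratio to Rpl22 that lay wholly above the controls at 20 mM, and 15.7% did at 35 mM. Rpl22l1 shares 80.1% of its 3′ windows with other genes and Rpl22 shares 0%.

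Rps27l (chr9:66946086-66949516), a paralog of Rps27 (chr3:90212522-90213651) known as a target of p53, had 37.3, 49.8 and 51.3 CPM at 11.8 mM, 64.98, 54.1 and 49.1 CPM at 20 mM and 55.5, 55.7 and 73.6 CPM at 35 mM. Its log2 fold change at 35 against 11.8 mM was 0.42 ± 0.16 (SE, edgeR adjusted p = 0.313). Its ratio to Rps27 was 1.77, 1.503 and 1.20 at 11.8 mM, 1.74, 1.53 and 1.66 at 20 mM, and 2.13, 1.85 and 2.33 at 35 mM. The 35 mM libraries lay wholly above both other groups (exact permutation p = 0.1, the smallest possible, two-sided), as did the ratio to Rps27 of 3.3% of all genes against 11.8 mM and of 14.1% against 20 mM. The groups at 20 and 11.8 mM overlapped (exact permutation p = 0.5). All 3′ windows of Rps27 are shared with other genes, and the number of its reads left uncounted was not measured.

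Rpl36al (chr12:69182731-69184083), the autosomal paralog of the X-linked Rpl36a (chrX:134585654-134588062), had 93.0, 119 and 107 CPM at 11.8 mM, 151, 136 and 135 CPM at 20 mM and 115, 113 and 124 CPM at 35 mM. Its log2 fold change at 20 against 11.8 mM was 0.40 ± 0.13 (SE, edgeR adjusted p = 0.325). The DESeq2 Wald test called it with an adjusted p of 0.0493, among 57 genes called. DESeq2 restricted to the 9739 genes of the expression filter called 34 genes and no member. Its ratio to Rpl36a was 0.272, 0.250 and 0.251 at 11.8 mM, 0.328, 0.290 and 0.377 at 20 mM, and 0.340, 0.292 and 0.290 at 35 mM. Here too the ratio was highest in each concentration's library with the lowest family median. Both higher concentrations again lay wholly above the control (exact permutation p = 0.1 for each, the smallest possible, two-sided), as did 3.4% of all genes' ratios to Rpl36a at 20 mM and 8.43% at 35 mM. Rpl36al shares 68.9% of its 3′ windows with other genes and Rpl36a shares 100%, and the number of reads left uncounted was not measured. The 3 ratios share their control libraries across concentrations, and the pairs were 3 of many that could have been formed.

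**Figure D3:**
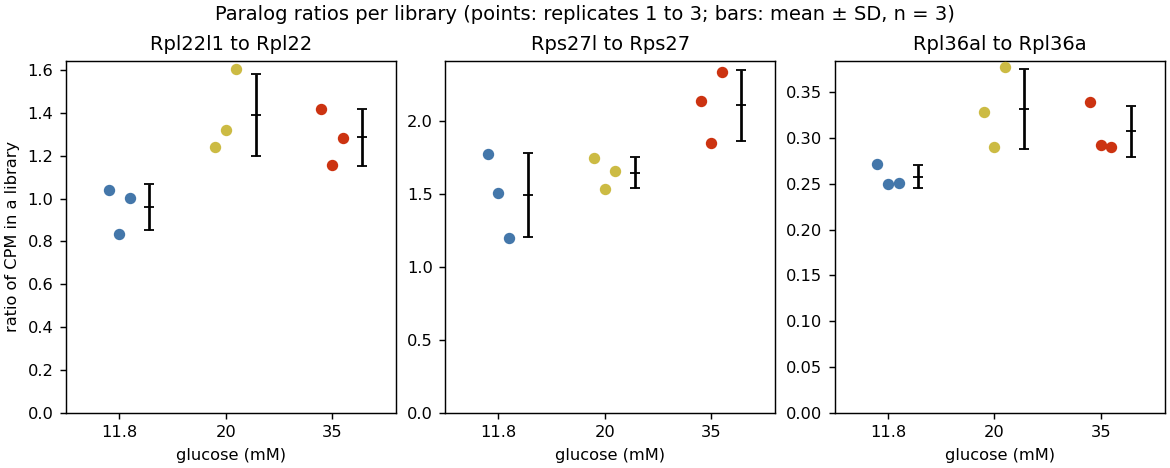
Ratio of the CPM of a paralog to that of its core ribosomal protein gene in each library, with points for replicates 1 to 3 and bars for the mean ± SD (n = 3). The Rpl22l1 and Rpl36al ratios at 20 and 35 mM lie above all 3 control libraries, and the Rps27l ratio does so at 35 mM.

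Libraries of the same concentration also differed. As a family the members moved together: with each concentration's mean removed, as for every correlation given here, the median correlation between 2 members over the 9 libraries was 0.78 over 3321 pairs, and 95.6% of pairs were above 0. Among 619 other genes of at least 100 CPM it was 0.01, with 50.9% of pairs above 0. These correlations are descriptions over libraries that share depth and scaling.

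Set against each gene's own mean over all libraries, the median member stood at -0.32, 0.19 and 0.06 on the log2 scale in the 3 libraries at 11.8 mM, at 0.25, 0.10 and -0.07 at 20 mM, and at -0.19, -0.08 and 0.12 at 35 mM. Replicate 1 at 11.8 mM was the lowest library of all 9 for 55 of 82 members, and replicate 1 at 20 mM was the highest for 41. The 3 libraries of a concentration spanned 0.51 at 11.8 mM, 0.31 at 20 mM and 0.31 at 35 mM. The values of the concentrations overlapped. The member that followed the family most closely was Rpl6, a large subunit protein, with 111, 176 and 169.8 CPM at 11.8 mM, 176, 148 and 126 CPM at 20 mM and 114, 132 and 159 CPM at 35 mM. Its levels at 11.8 mM alone spanned nearly its whole range.

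**Figure D4:**
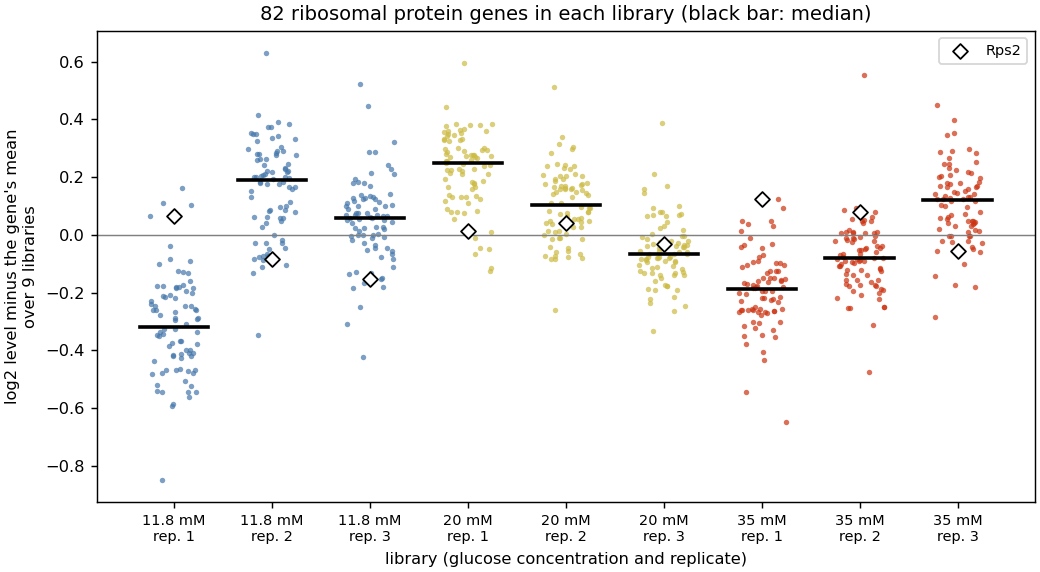
Log2 level of each of the 82 ribosomal protein genes minus its own mean over the 9 libraries, by library, with the median as a black bar and Rps2 as a diamond. The medians range from -0.32 in replicate 1 at 11.8 mM to 0.25 in replicate 1 at 20 mM, and Rps2 sits on the opposite side in both of the lowest libraries.

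A few members did not share this movement. Rps2 (chr17:24718116-24721929), whose protein lines the mRNA entry channel, had 681, 613 and 585 CPM at 11.8 mM, 657, 669 and 637 CPM at 20 mM and 709, 687 and 625 CPM at 35 mM. Its within-concentration SD of 0.09 on the log2 CPM scale was the lowest of the members, though with counts scaled to the total without insulin its SD between samples was 0.12 and that of Rpl36al 0.06. Its correlation with the median of the other members over the 9 libraries was -0.72. At 11.8 and 35 mM it was highest in the library where the family was lowest, but at 20 mM it was lowest in that library. It was the only member with a correlation below 0. Rps19bp1 followed with 0.08, Rps13 with 0.23, Rplp2 with 0.25, Rps9 with 0.28 and Rpl28 with 0.32. For 46 of the 82 members the correlation was above 0.9, with Rpl6 at 0.99 and Rps20 at 0.99. Of the genes just named as least like the family, Rps9, Rps13 and Rps19bp1 had groups that did not overlap in a comparison. Rps2, Rplp2 and Rpl28 overlapped in all. Other members with groups that did not overlap had correlations of 0.97 (Rpl38), 0.93 (Rps27l), 0.92 (Rpl36al), 0.63 (Rpl8), 0.62 (Rps27a) and 0.48 (Rpl22l1). Groups with a small spread separate more easily by construction.

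Values were also set out by the annotated start, with no test of the difference. The 13 tested members with the tract had median log2 fold changes of 0.10 at 20 against 11.8 mM, 0.03 at 35 against 11.8 mM and -0.10 at 35 against 20 mM, and 49 tested members with another start had 0.10, -0.04 and -0.15. Their median correlation with the family was 0.84 and 0.92. At the annotated starts printed above, Rpl38 and Rplp2 have the tract and Rps2 and Rpl4 do not. The split depends on the annotation and the rule. Rpl27a counts as another start because its run of 16 pyrimidines opens with a T. For Rpl4 the GENCODE gene begins at chr9:64173375, before the printed start.

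Other genes with short annotated transcripts moved with the same libraries. Most of the tested members had annotated transcripts under 1200 bases, with a range from 345 bases (Rps27) to 5179 bases (Rps15a). For each gene 1 annotated transcript was taken, by annotation rank and then the longest, and it may not be the one counted here. Among other protein-coding genes of at least 20 CPM, the 103 with an annotated transcript under 700 bases had median values of -0.36, 0.01 and 0.01 at 11.8 mM, 0.24, 0.10 and 0.00 at 20 mM and -0.10, 0.01 and 0.10 at 35 mM, relative to each gene's mean on the log2 scale. Their median correlation with the family was 0.68. It was 0.55 for 314 genes from 700 to under 1200 bases, 0.12 for 976 genes from 1200 to under 2500 bases and -0.20 for 1930 genes of 2500 bases or more. The range over libraries was 0.60 in the shortest class and 0.34, 0.11 and 0.10 in the next longer ones. The part of transcript length in the members' differences between libraries was not tested. The 2 libraries where the family was lowest, replicate 1 at 11.8 mM and replicate 1 at 35 mM, also had the highest share of reads without a unique alignment, 21.9% and 22.6%, against 12.6% to 16.2% in the other 7. In each, 1 sub-library held the excess. At 11.8 mM it had 35.2% against 13.3% and 15.2%, with member shares without insulin of 6.17% against 6.17% and 6.23%. At 35 mM it had 39.5% against 12.0% and 11.3%, with member shares of 6.42% against 6.26% and 6.17%. A link between alignment and the family level was not tested.

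**Figure D5:**
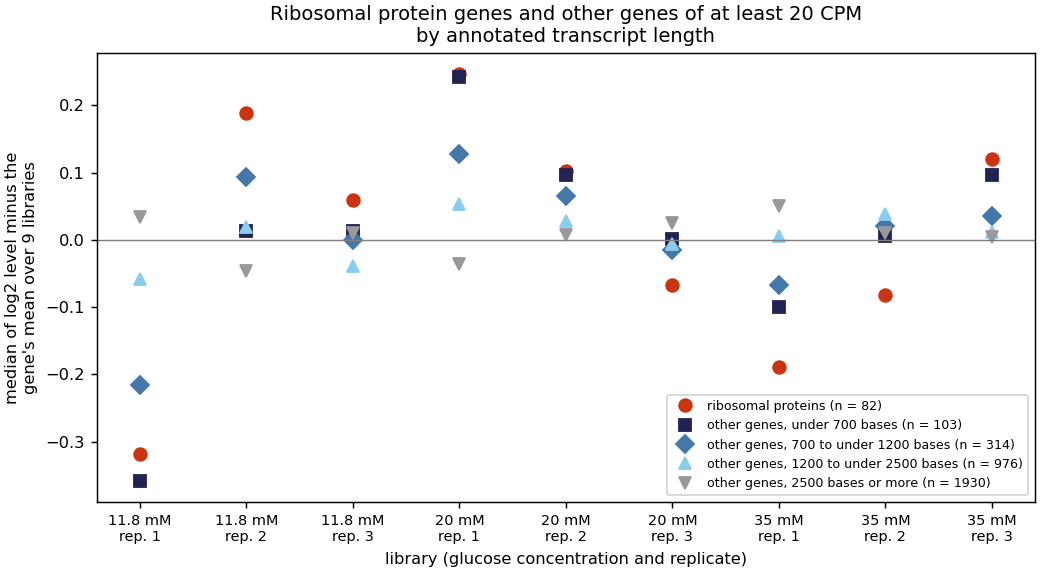
Median log2 level relative to each gene's own mean, by library, for 82 ribosomal protein genes (circles) and for other genes of at least 20 CPM in 4 classes of annotated transcript length. Other genes under 700 bases stand at -0.36 in replicate 1 at 11.8 mM and at 0.24 in replicate 1 at 20 mM, close to the ribosomal proteins, while genes of 2500 bases or more lie between -0.05 and 0.05.

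Among the sub-libraries of a library the members' share of the counts without insulin varied little. In replicate 1 at 11.8 mM the members took 6.17% to 6.23% of the counts without insulin over its 3 sub-libraries, and in replicate 2 at 11.8 mM 7.71% to 7.80%. The sub-library of replicate 1 at 11.8 mM with 35.2% of its reads not uniquely aligned lay within that range, at 6.17%. Replicate 1 at 20 mM had 7.73% to 7.85% and replicate 1 at 35 mM had 6.17% to 6.42%. Replicate 3 at 20 mM spread most, from 6.54% to 7.003%. As a share of all gene counts, the measure given first above, the sub-libraries differed more, from 2.99% to 3.48% in replicate 1 at 11.8 mM and from 2.82% to 3.77% in replicate 1 at 35 mM, with the sub-library that stood apart the highest in both. For single members the median SD of the log2 share without insulin was 0.15 between sub-libraries and 0.18 between samples of a concentration, and 55 of 82 members had the larger SD between samples. Without the 2 sub-libraries that stood apart, the members' median log2 fold changes were 0.10, -0.02 and -0.15 in the 3 comparisons, and 0 members were called.

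Markers of other cells varied between the same libraries. The 21 tested acinar markers stood at -1.08, 0.80 and -0.83 at 11.8 mM, 0.92, 0.02 and -0.07 at 20 mM and 0.51, -0.07 and -0.09 at 35 mM on the same scale, with a median correlation with the family of 0.58, and their median log2 fold change at 20 against 11.8 mM was 0.39. In replicate 3 at 11.8 mM and replicates 1 and 3 at 35 mM they lay on the other side of 0 from the ribosomal proteins. Of the markers 25 are in the gene table and 0 of 21 tested were called. The median correlation was 0.38 for 16 fibroblast and stellate markers, 0.24 for 16 macrophage markers and -0.17 for 17 beta cell markers. Their part in the members' values was not tested.

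The genes most like the family in profile were Calm2, a calmodulin gene, with a correlation of 0.99 with the member median over the 9 libraries, Ghitm, an inner mitochondrial membrane protein, with 0.98, and mt-Co1, a mitochondrially encoded oxidase subunit, with 0.98, among 3328 other genes of at least 20 CPM. These 3 were named after their values were seen. As classes, the 13 mitochondrially encoded genes had a median correlation of 0.82 and 80 nuclear genes of oxidative phosphorylation 0.65. The 76 mitochondrial ribosomal proteins, which serve the separate ribosome inside mitochondria, had 0.26 and a range over libraries of 0.18.

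Genes that work with the cytosolic ribosome did not pass the test either. Of 24 translation factors and other mRNAs known to carry a TOP sequence, 23 were tested and 0 were called in any comparison, with medians of 0.05, -0.06 and -0.07 at 20 against 11.8, 35 against 11.8 and 35 against 20 mM. In this list Btf3 and Naca, of the nascent chain complex, had correlations of 0.96 and 0.93 with the family, Npm1 0.95 and Fau, itself the precursor of a small subunit protein, 0.93. Fau had 226, 287 and 294 CPM at 11.8 mM, 327, 268 and 239.7 CPM at 20 mM and 238, 266 and 284 CPM at 35 mM. Eef2, the elongation factor that moves the ribosome along the mRNA, had -0.83, with 1189, 1029.8 and 886 CPM at 11.8 mM, 798, 954 and 1002 CPM at 20 mM and 997, 975 and 849 CPM at 35 mM. Eef1g and Pabpc1 had -0.68 and -0.61.

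Of the genes that build ribosomes, 0 of 38 tested biogenesis factors and 0 of 17 tested genes of RNA polymerase I, which makes ribosomal RNA, and its factors were called. Their median log2 fold changes at 20 and 35 against 11.8 mM were 0.03 and 0.02 for biogenesis and 0.21 and 0.10 for RNA polymerase I, where 15 of 17 lay above 0 at 20 mM, against 49.8% of all genes, and 9 of 17 at 35 mM, against 49.6%. Like the ribosomal proteins, the RNA polymerase I list was low in replicate 1 at 11.8 mM, with medians of -0.22, 0.06 and 0.00 in the 3 control libraries. Among the biogenesis factors, the smallest p at 20 against 11.8 mM belonged to Tcof1, a factor of ribosomal RNA transcription, at -0.87 ± 0.26 (SE, edgeR adjusted p = 0.233). In the RNA polymerase I list the smallest edgeR adjusted p in that comparison was 0.592. Of mTORC1 and the regulators of TOP mRNAs, 0 of 22 were called, with medians of 0.02 and 0.04, and Akt1s1, an inhibitory subunit of mTORC1, had the smallest p at 20 mM, at -0.60 ± 0.20 (SE, edgeR adjusted p = 0.332).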

How the data were processed

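Per the labels' protocols, CEL-Seq2 libraries were made from 3 ng of purified RNA and sequenced with 15 bases of read 1 and 52 of read 2. The authors deposited read counts for each gene in each sub-library. The submitters' processing notes name cutadapt, TopHat, HTSeq, DESeq2 and the build GRCm38.p4. Tool versions, the annotation and the strand setting are not given in the sources at hand. Counts exceed the 4096 possible UMIs of 6 bases for 1 member, so they are reads and not molecules, and intervals or limits cover counting error only. The deposited sample sheet (a table of sample names, with no measured unit) tied 27 sub-libraries to 9 libraries, which were summed. Another 30 columns whose names match no label were not used here. Spike-ins (92) and 5 summary lines, which held 19.6% to 29.9% of all reads, stayed out of library sizes and tests. Symbols came from GENCODE M21 for 21781 of 22048 genes.

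Tests used edgeR 4.0.16 in R 4.3.3 (TMM, filterByExpr, concentration means over all 9 libraries, 6 residual degrees of freedom, robust quasi-likelihood test, Benjamini-Hochberg over 9739 genes, called under 0.05), tested on simulated data. Log2 CPM used a prior count of 2. Exact permutation tests used scipy 1.17.1. Alternatives used DESeq2 1.42.0 and other scalings, filters and sample sets. DESeq2 on the filtered genes and removal of 2 sub-libraries were added after seeing the data. Named genes were, per comparison, the 4 members with the smallest p, fixed lists of well-known members and paralogs, the 5 highest and 5 lowest members, the 3 most variable and, from each other list, the 2 genes with the smallest p, of which the text prints a part; 1 member is not reported here by name, though it stays in the counts. Named after their values were seen were the members whose libraries did not overlap, those that followed the family most and least, and the genes most like it. Members, lists and settings were chosen with earlier results of these data known.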

Additional observations from a re-analysis of the deposited data

How the results depend on the processing

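Each count of called ribosomal protein genes and each median was recomputed under 21 alternatives, with 9 of them leaving out 1 library. The count stayed at 0 in all 3 comparisons with these exceptions. At 20 against 11.8 mM the DESeq2 Wald test called 1 member (Rpl36al), among 57 genes called. At 35 against 11.8 mM 1 member (Rpl5) was called without replicate 1 at 11.8 mM, among 138 genes called. There the range over left-out libraries was 0 to 1. Over left-out libraries the median ran from 0.00 to 0.22 at 20 against 11.8 mM, from -0.18 to 0.08 at 35 against 11.8 mM and from -0.23 to -0.08 at 35 against 20 mM. Spike-in scaling gave 0.17, 0.10 and -0.08, while moving the median of all genes to 0.06, 0.12 and 0.06. The summed share at 11.8, 20 and 35 mM was 7.18%, 7.33% and 6.74% without Ins1 and Ins2, and 8.36%, 8.64% and 7.85% without the 20 most abundant and the mitochondrially encoded genes, the denominator being smaller by construction. No sign of pairing by replicate number was seen: correlations of same-numbered libraries ran from -0.15 to 0.05, and those of differently numbered ones from -0.16 to 0.16. With so few libraries this cannot show that the samples were unpaired. With the replicate number as a block, 0 members were called in each comparison, with medians of 0.12, -0.03 and -0.16. Over all genes, 13, 74 and 3 were called with the block in place of 18, 84 and 3. The 34 named members gave 102 values, each under up to 21 alternatives; of these recomputed values 2 passed the threshold, 27 others moved by more than a standard error, 2104 did neither, and 91 had the other sign. Members near 10 CPM have standard errors near 0.3, so that changes of the size seen in the family were not detectable for them. For the typical member the limit was similar, with a median standard error of 0.14 against family medians of 0.11, -0.04 and -0.15. A count of 0 called members therefore does not show that changes of this size were absent.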
